A study of Mus musculus with 2 samples.

Results

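The genes described here are 7 ankyrin and spectrin genes of the mouse, the ankyrins Ank1, Ank2 and Ank3, the alpha spectrin Sptan1 and the beta spectrins Sptb, Sptbn1 and Sptbn4. They were taken by symbol from a list that named them and were found through their Ensembl identifiers, so they are 7 of the 43346 annotated genes in the deposited gene tables, and each had reads in both libraries. The series holds 2 RNA sequencing libraries of whole brain from C57BL/6J embryos at embryonic day 14.5, taken from littermates of both sexes, with no treatment and no altered allele in the labels. Both libraries came from polyadenylated RNA over 200 nt that had been depleted of ribosomal RNA, were stranded, were read as pairs of 101 nt and carried spike-in RNA. They form 1 group, and the labels number them as biological replicates 1 and 2. No contrast between groups can be tested. The labels do not say which embryos went into which library, so how much of the spread is technical is not known.

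Spectrins are long rod-shaped proteins that pair as alpha and beta chains and form, with short actin filaments, the lattice under the cell membrane. In axons the lattice is periodic, and ankyrins tie it to channels and adhesion molecules in the membrane, with ankyrin-G (Ank3) organising the axon initial segment and nodes of Ranvier and ankyrin-B (Ank2) acting along the axon shaft. Ankyrin-R (Ank1) and the erythroid beta spectrin (Sptb) were first described in the red cell membrane, and giant forms of Ank2 and Ank3 arise when a very long exon is spliced in.

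Expected counts, the estimated reads per gene, summed to 1.03e+08 in replicate 1 and 9.75e+07 in replicate 2. The label of brain was checked against markers. All 7 young neuron genes stood at 1 TPM or more (transcript abundance scaled to a fixed total and by transcript length) in both libraries, with a list median of 303 and 379 TPM in replicates 1 and 2. Markers of other tissues were also read, with list medians of 1.35 and 1.07 TPM for skeletal muscle and 16.2 and 19.4 TPM for epidermis. All markers of radial glia (6 genes, summed level 2045 and 1859 TPM), endothelium (5 genes, 140 and 164 TPM), microglia (4 genes, 37.6 and 36.8 TPM) and choroid plexus (3 genes, 1044 and 1403 TPM) were at 1 TPM or more as well. The libraries differed in regional content. The 3 hindbrain genes Hoxb3, Hoxa5 and Hoxb5 summed to 10.7 and 100.9 TPM in replicates 1 and 2. The forebrain genes Emx1 and Lhx2 stood at 57.4 and 10.6 TPM and at 227 and 122 TPM. Of 4 genes of meninges and fibroblasts, Col1a1 stood at 36.6 and 146 TPM and Col1a2 at 56.5 and 143 TPM, while Lum (37.3 and 42.5 TPM) and Dcn (52.5 and 56.3 TPM) differed little. In bulk tissue, fewer cells of a type and less RNA per cell cannot be told apart.

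All 7 genes stood at 1 TPM or more in both libraries, as did 62.2% of protein-coding genes. Sptan1, which encodes the alpha chain of all non-erythroid spectrin, had the highest level of the 7, with 431 TPM in replicate 1 and 415 in replicate 2, or 423 ± 11.1 TPM (SD, n = 2). That put it at place 255 and place 231 among 21474 protein-coding genes. Sptbn1, the widely expressed beta-II spectrin, followed at 75.4 and 132 TPM, or 104 ± 40.2 TPM (SD, n = 2). Ank3 stood at 62.3 and 137 TPM (99.6 ± 52.8) and Ank2 at 50.4 and 94.8 TPM (72.6 ± 31.4). These 3 genes formed a middle group whose ranges overlapped. Sptbn4, the beta-IV spectrin of axon initial segments, stood at 17.4 and 23.2 TPM (20.3 ± 4.07). The genes first described in red cells were lowest, Ank1 at 4.51 and 8.49 TPM (6.5 ± 2.81) and Sptb at 1.46 and 6.42 TPM (3.94 ± 3.51).

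**Figure D1:**
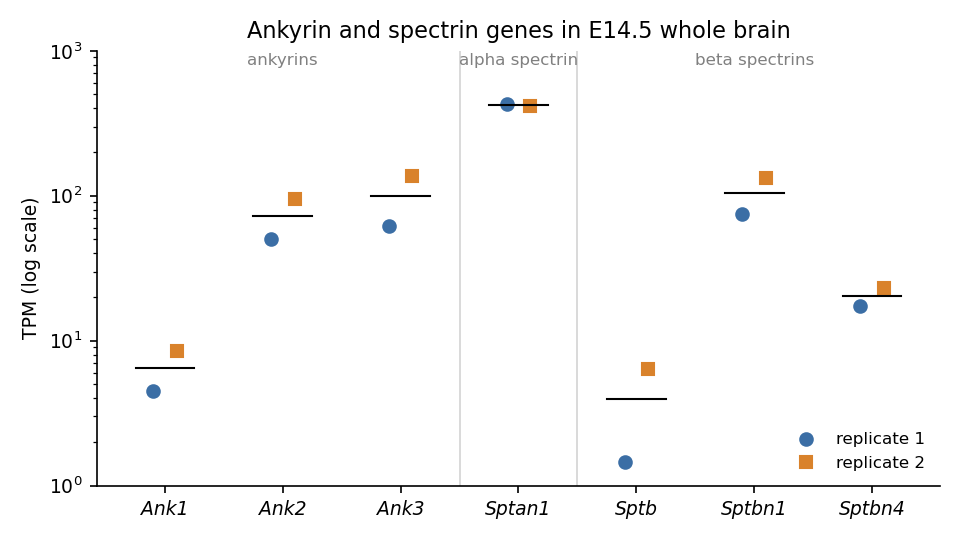
Level of each gene in TPM on a log axis, with 1 point for replicate 1 (circle), 1 for replicate 2 (square) and a line at their mean. Sptan1 lies above the other 6 genes in both libraries, and replicate 2 lies above replicate 1 in every gene but Sptan1.

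Of the 21 pairs among the 7 genes, 18 were apart in level, meaning that the log2 ratio of the 2 genes of TPM, with no pseudocount, had 1 sign in both libraries and a mean over 1 and over its SD. The 3 pairs that were not apart lay among Sptbn1, Ank3 and Ank2. The order of Sptbn1 and Ank3 changed between the libraries, with log2 ratios of 0.28 and -0.05. Sptbn1 exceeded Ank2 by a log2 ratio of 0.53 ± 0.07 (SD, n = 2), and Ank3 exceeded Ank2 by 0.42 ± 0.16, which were under the size asked for. Ank1 and Sptb, at the bottom, passed narrowly, with log2 ratios of 1.63 and 0.40. They were no longer apart with a pseudocount of 1 (mean 0.76), from replicate 2 alone or from transcripts of 5 kb or more (mean 0.79), where Sptbn4 and Ank1 were not apart either (0.68). With mm9 RPKM, Sptbn4 was not apart from Ank3, Ank2 or Ank1, while Sptbn1 was apart from Ank3 and Ank2.

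Replicate 2 had the higher level in 6 of the 7 genes. Of 697 protein-coding genes with a longest transcript from 8 kb and a mean TPM of 1 or above, 85.2% were higher in replicate 2. The 7 genes all lie in that range, so the count of 6 is near its background. The log2 ratio of TPM + 1, replicate 2 to replicate 1, was 1.59 in Sptb and 1.12 in Ank3. These were the 2 of the 7 genes that reached a 2-fold difference on this scale. Over the 15127 genes with a mean TPM of 1 or above, 2.37% were 2-fold or more higher in replicate 2 and 1.11% were 2-fold or more lower. The log2 ratio was 0.90 in Ank2, 0.80 in Sptbn1, 0.78 in Ank1 and 0.39 in Sptbn4. Sptan1 differed least, with a log2 ratio of -0.05, and its sign turned, to 0.06, when expected counts were scaled by TMM (a scaling to a trimmed mean of ratios between libraries). The intervals that the authors deposited beside each TPM value, whose level is not stated, did not overlap between the libraries except in Sptan1.

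The median log2 ratio over the 7 genes was 0.80, against 0.01 over all genes with a mean TPM of 1 or above. The signed ratio went up with transcript length. Protein-coding genes whose longest transcript was under 2 kb had a median log2 ratio of -0.21 (3181 genes), and those from 8 kb had 0.32 (697 genes). The longest transcripts of the 7 genes ran from 8018 nt (Sptan1) to 14308 nt (Ank2), so all lay in the longest range, where 4.73% of genes were 2-fold or more higher in replicate 2. Ank1, Ank2, Ank3, Sptb, Sptbn1 and Sptbn4 lay above the median of that range and Sptan1 below it. The part of length, of regional content and of cells that express the collagens in these differences was not tested.

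**Figure D2:**
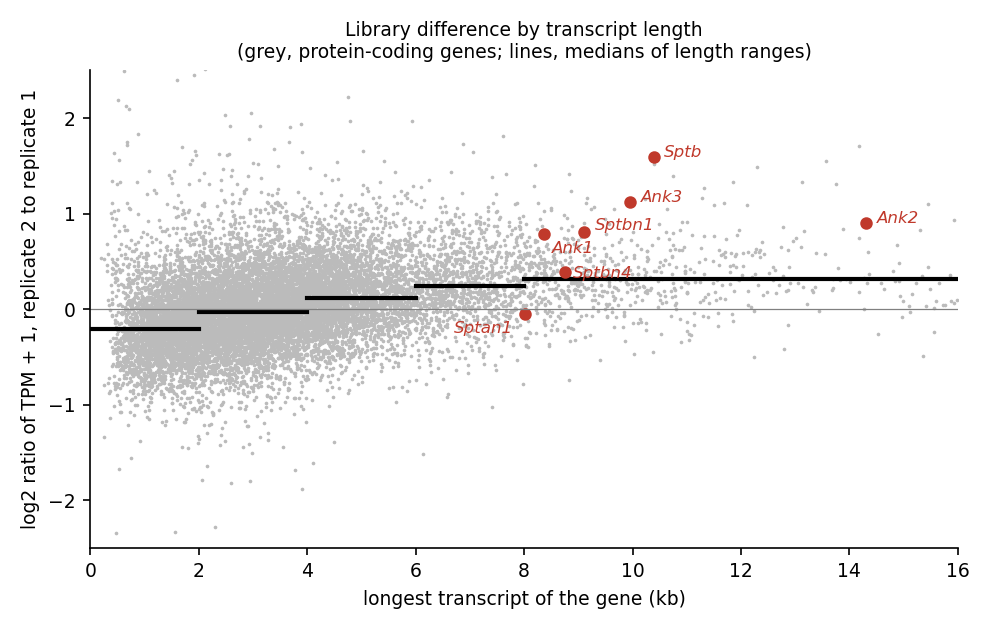
Log2 ratio of TPM + 1 in replicate 2 to replicate 1 against the longest transcript of the gene in kb, for protein-coding genes with a mean TPM of 1 or above (grey; 34 lie outside the axes) with the 7 genes in red and the median of each length range as a black line. The medians rise from -0.21 to 0.32, Sptb and Ank3 lie above 1, and Sptan1 lies below its range's line.

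Junction reads gave a second view of the library difference, one that does not depend on dividing reads among transcripts. The deposited mm9 junction file gives a first and a second read count per intron and does not tie them to the numbered libraries. Over annotated introns Sptb had 431 and 1651 reads, a log2 ratio of second to first of 1.94. Sptbn1 had 12958 and 27727 reads (1.10), Ank3 6734 and 13660 (1.02), Ank2 8753 and 17181 (0.97) and Ank1 1455 and 2812 (0.95). Sptbn4 had 3978 and 5382 reads (0.44) and Sptan1 92930 and 92536 (-0.01). All annotated junctions together had a log2 ratio of -0.15, so Sptan1 lay near the whole file and the other 6 genes above it. The mm9 gene table also does not tie its first and second value to a library, and it ran the other way in all 7 genes. Ank1 had 2.73 and 0.71 RPKM (reads scaled by length and depth). In Sptan1 the values were close in both sources, with 38.7 and 39.3 RPKM.

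The difference was close at both ends of Sptbn1 and Ank3 and a little smaller toward the 5′ end in Ank2. It was larger toward the 5′ end in Ank1, Sptan1 and Sptb and, by a little, in Sptbn4. In all genes, introns under 1000 nt of spliced sequence from the 3′ end had a median log2 ratio of -0.30 and those beyond 8000 nt of 0.49. Of the 7 genes, only Sptan1 had introns in the first of these ranges that entered this count (4, median -0.24). In Sptbn1 the log2 ratio was 1.13 over the introns nearest the 3′ end, 1 part in 3 of all, and 1.13 over the same number nearest the 5′ end. It was 1.06 and 1.04 in Ank3, 1.10 and 0.95 in Ank2, 1.75 and 2.03 in Sptb, and 0.28 and 0.40 in Sptbn4. By distance Sptbn4 did not rise steadily, with medians of 0.28 at 1000 to 2000 nt, 0.59 at 4000 to 6000 nt and 0.26 beyond 8000 nt. Ank1 went from 0.69 to 1.08 and Sptan1 from -0.09 to 0.13.

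**Figure D3:**
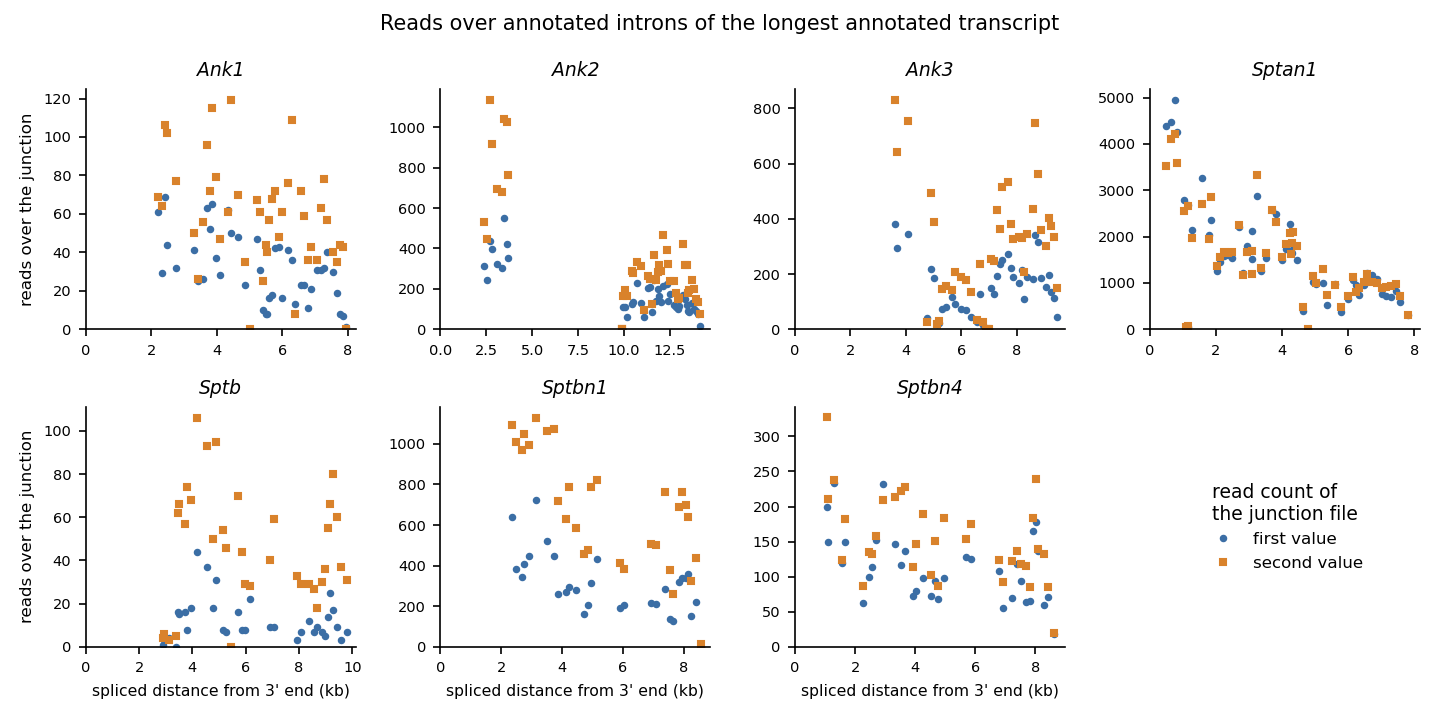
Reads over each annotated intron of the longest annotated transcript of the 7 genes, against the spliced distance of the intron from the 3′ end in kb, for the first (circle) and second (square) read count of the junction file. The second count lies above the first at 33 of 35 introns of Sptb, 30 of 30 of Sptbn1, 43 of 46 of Ank2 and 38 of 42 of Ank3, while the counts of Sptan1 run together and fall toward the 5′ end. The empty stretch in Ank2 is its long exon.

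Read density fell toward the 5′ end in 6 of the 7 genes. The mean per intron of the 5′ set divided by that of the 3′ set was 0.339 and 0.396 in Sptan1 (first and second count), 0.455 and 0.411 in Ank2, and 0.457 and 0.602 in Ank1. It was 0.512 and 0.511 in Sptbn1, 0.627 and 0.683 in Sptbn4, and 0.710 and 0.862 in Sptb. Ank3 came to 1.26 and 1.24, but on Ank3-206, a model that stood at 0 and 0.01 TPM. The 3′ set of that model holds introns that few reads used. One had 39 and 27 reads, while another intron from the same start, outside the model, had 379 and 765. The intron that spans the giant exon had 20 and 20. The Ank3 ratio depends on this model, so it does not show that read density rose toward the 5′ end. Over 2923 genes with at least 15 introns and a mean of 20 reads per intron, the median was 0.587 and 0.615. Of the 356 introns annotated in the 7 genes, 327 (91.9%) had reads, beside 89.1% over all genes with a mean TPM of 1 or above. Introns without reads numbered 7 each in Ank1 and Ank2, 5 each in Ank3 and Sptbn4, 3 in Sptb and 1 each in Sptan1 and Sptbn1.

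Ank1 (ENSMUSG00000031543, chr8:22974844-23150497, plus strand, mm10) encodes ankyrin-R. Its level rested on 2244 and 3584 expected counts. Of 17 transcripts in the tables, Ank1-209 (8218 nt, protein-coding) held 53.0% of the gene's summed transcript TPM in replicate 1 and 51.6% in replicate 2. Ank1-210 (8366 nt) held 31.0% and 20.02%. The later annotation release used for names (GENCODE M21) marks Ank1-210 as a target of nonsense-mediated decay, the removal of messages with an early stop codon. The exon of 117 nt that M21 places in Ank1-210 alone (chr8:23131438-23131554, mm10), outside a coding sequence, was spliced in 42.3% and 37.6% of the time. That inclusion is the mean of the reads into and out of the exon, divided by that mean plus the reads that span it. The upstream ends of the gene were thinly read. The intron after the first exon of Ank1-209 had 3 and 20 reads and the one after the first exon of Ank1-210 had 1 and 0, while the median annotated intron of the gene had 82 in both counts together. The exon that starts the short transcripts Ank1-201, Ank1-208 and Ank1-217, far downstream, had 3 and 0 reads. The most read intron (chr8:24229906-24231006, mm9) had 180. An intron of 399 nt that the mm9 annotation lacks had 8 and 4 reads.

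Ank1 and Sptb are expressed in red cells, and the libraries held some red cell RNA. The 9 erythroid markers summed to 305 and 484 TPM, of which the embryonic globin Hbb-y made up 259 and 412. The transcription factors Gata1 (0.24 and 0.34 TPM) and Klf1 (0.54 and 0.58 TPM) and the blood group protein Rhag (0.06 and 0.11 TPM) were under 1 TPM. Hba-x (32.2 and 49.7 TPM), Alas2 (9.88 and 17.4 TPM) and Slc4a1 (1.11 and 1.94 TPM) were above it and higher in replicate 2, with log2 ratios of 0.61, 0.76 and 0.48. Epor was also above it but not higher in replicate 2 (1.49 and 1.46 TPM, log2 ratio -0.02). Of the 9 markers, 8 were higher in replicate 2 and 1 was lower. The part of red cells in the levels of Ank1 and Sptb was not tested.

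Ank2 (ENSMUSG00000032826, chr3:126921612-127499350, minus strand, mm10) encodes ankyrin-B. It had 22109 and 42325 expected counts over 34 transcripts. Ank2-208, a model of 5208 nt in the deposited tables, led in both libraries at 43.6% and 38.0% of summed TPM. The model with the identifier ENSMUST00000182112 (13865 nt), which has no entry in M21, held 15.8% and 24.6% of TPM and 33.7% and 46.0% of the reads. It went from 7444 reads in replicate 1 to 19467 in replicate 2, the larger change of the 2 models. M21 gives Ank2-208 a length of 14305 nt, so the name covers a different model there. The first intron furthest upstream had 77 and 124 reads, and another first intron (chr3:126807781-126928681, mm9) had 15 and 74. The first intron of Ank2-201, which starts inside the gene at chr3:126998462 (mm10), had 29 and 16, so this start had fewer reads in the second count while the gene had more. The most read intron (chr3:126639682-126640655, mm9) had 1594. Of 3 introns missing from the mm9 annotation, one of 234269 nt had 30 and 48 reads and its length is in M21, while those of 4867 nt (26 and 33 reads) and 4855 nt (3 and 20 reads) were not matched.

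The giant form of ankyrin-B carries an exon of 6198 nt (chr3:126941610-126947807, mm10, coding in Ank2-207). The same exon length and flanking intron lengths were found in the mm9 annotation. Its joints are shown because their reads count entry into, exit from and skipping of this exon, with the exon's own bases in capitals.
Ank2 joint into the exon: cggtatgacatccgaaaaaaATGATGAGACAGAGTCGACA
Ank2 joint out of the exon: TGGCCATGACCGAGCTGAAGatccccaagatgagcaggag
Ank2 joint that skips it: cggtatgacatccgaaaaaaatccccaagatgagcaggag

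The joint into the giant exon had 43 reads in the first count and 144 in the second, and the joint out of it 352 and 766. Joints that span the exon had 58 and 66 reads. Inclusion was 77.3% and 87.3%, or 82.3% ± 7.09 (SD, n = 2). The sides differed, since inclusion was 42.6% and 68.6% from the joint into the exon alone and 85.9% and 92.1% from the joint out of it alone. Over the 9 Ank2 introns at 2000 to 4000 nt from the 3′ end, downstream of the giant exon, the median was 352 and 766 reads, and over the 34 introns beyond 8000 nt it was 126 and 244. RefSeq lists 1 of 4 Ank2 starts at chr3:126943386, inside this exon. Its part in the unequal sides was not tested. The exon RPKM values of the mm9 table say nothing of exon use, because all 420 exon values of the 7 genes equalled the sum of their transcripts' values within 0.001 RPKM. There the giant exon lay at a log2 ratio of -0.01 to the median of the other Ank2 exons, and the longest annotated Ank3 exon, its last one of 3605 nt, at 0.66.

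Ank2 had 5 other exons at intermediate inclusion, the most of the 7 genes. An exon of 183 nt near the 3′ end (chr3:126928665-126928847, mm10) was included 46.1% and 42.1% of the time. The 3 exons of 99 nt differed from each other, at 58.4% and 56.5% (a, chr3:127248134-127248232), 80.9% and 84.6% (b, chr3:127012673-127012771) and 35.1% and 46.8% (c, chr3:126963383-126963481). Exon b was the most included of the 3 in both counts and exon c the least. A very short exon of 24 nt (chr3:127052226-127052249) was included 83.81% and 84.97% of the time. Such microexons are known to be included in neurons in particular, so its sequence is shown, with the exon in capitals.
Ank2 24-nt exon: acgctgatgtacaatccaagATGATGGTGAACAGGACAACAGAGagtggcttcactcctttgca

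Ank3 (ENSMUSG00000069601, chr10:69398773-70027438, plus strand, mm10) encodes ankyrin-G. It had 20957 and 42363 expected counts over 44 transcripts, and its leading share was the lowest of the 7 genes. Ank3-244 (8612 nt) led at 22.1% and 24.9%, followed by Ank3-231 (9963 nt) at 20.4% and 17.2% and Ank3-235 (626 nt, a retained intron) at 13.6% and 12.3%. By reads, Ank3-231 led in replicate 1 with 8443 expected counts and Ank3-244 in replicate 2 with 17571. The main first intron had 46 and 150 reads and that of Ank3-205, inside the gene, 3 and 6. The most read intron (chr10:69478402-69486579, mm9) had 1212.

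Ank3 also had the highest share of reads over introns that the mm9 annotation (Ensembl release 65) does not hold, 13.9%, beside a median of 2.16% over 9326 genes with 1000 or more junction reads. Such shares were as high in 4.21% of those genes. In the other 6 genes they ran from 0.53% (Sptb) to 2.48% (Ank2). Of the 14 unannotated Ank3 junctions with at least 5% of the reads of the gene's median intron, 12 had an intron length that M21 lists in Ank3. Among them were the introns around 3 exons, a giant one of 7680 nt and short ones of 33 and 27 nt. No M21 transcript holds the 7680-nt exon whole. Its entry is that of a 2550-nt exon of Ank3-233 and its exit that of the 7674-nt exon of Ank3-244, so reads in and out need not belong to the same exon. An unannotated first intron of 60765 nt had 42 and 40 reads, and one of 101490 nt, whose length M21 lists in Ank3-211, Ank3-221 and Ank3-233, had 1 and 25. The best supported one that M21 does not match had a length of 4578 nt and 60 and 131 reads, and the other had 3921 nt and 13 and 13 reads. An intron of 1896 nt (9 and 24 reads) started inside the giant exon and ended where the joint out of that exon ends. The remaining introns were of 4590 nt (15 and 36 reads) and 10579 nt (41 and 97).

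The giant exon of ankyrin-G ended at chr10:69993762 in mm10 (Ank3-244), and most reads entered it 6 nt upstream of the start that Ank3-244 uses, at the site of Ank3-233 (chr10:69986083). The main intron into it, of 3885 nt, had 136 and 333 reads, and all introns into that site 149 and 348. The intron to the site 6 nt downstream had 16 and 47 reads and was left out of inclusion. The joint out of the exon had 110 and 261. Joints that span it had 27 and 21. Inclusion was 82.7% and 93.5%, or 88.1% ± 7.64 (SD, n = 2), and here the sides were closer, with means of 89.5% from the reads into it and 86.4% from the reads out of it. The joints are shown as for Ank2, with the exon's bases in capitals.
Ank3 joint into the exon: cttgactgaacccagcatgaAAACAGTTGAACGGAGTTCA
Ank3 joint out of the exon: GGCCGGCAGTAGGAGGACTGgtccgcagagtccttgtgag
Ank3 joint that skips it: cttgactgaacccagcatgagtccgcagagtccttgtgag

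The 33-nt exon of Ank3 (chr10:69953440-69953472, mm10) was included 77.5% and 84.7% of the time. The 27-nt exon (chr10:69980824-69980850) was included 70.3% and 85.7% of the time, with more reads out of it (88 and 245) than into it (49 and 161). Both are shown with their flanks, the exon in capitals. Inclusion was higher in the second count for each of the 3 Ank3 exons and for the giant exon of Ank2, but lower for both Ank1 exons, so the counts did not differ in 1 direction.
Ank3 33-nt exon: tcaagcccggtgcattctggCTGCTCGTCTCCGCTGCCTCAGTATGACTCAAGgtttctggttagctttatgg
Ank3 27-nt exon: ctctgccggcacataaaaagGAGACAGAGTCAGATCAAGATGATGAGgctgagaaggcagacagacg

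Sptan1 (ENSMUSG00000057738, chr2:29965560-30031451, plus strand, mm10) had 94381 and 92401 expected counts. Its leading transcript by TPM differed between the libraries. Sptan1-208, a model of 1434 nt in the deposited tables (7585 nt in M21), held 29.7% and 27.6%, and Sptan1-203 (7892 nt), a full-length form, 23.4% and 27.8%. The retained-intron fragments Sptan1-207 (457 nt) and Sptan1-211 (1023 nt) held 16.2% and 14.4%, and 15.3% and 12.4%. The 5 models of 5 kb or more together held 34.5% and 40.4% of the TPM but 82.6% and 85.5% of the reads. By reads Sptan1-203 led in both libraries, at 56.1% and 58.8%. The level of 423 TPM for the gene includes short models, and the long models alone summed to 148 and 168 TPM.

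Reads over Sptan1 introns were the most numerous of the 7 genes, up to 9151 over 1 intron near the 3′ end (chr2:29885891-29885971, mm9). In Sptan1, 2 coding exons stood between 10% and 90%. The exon of 60 nt (chr2:30001100-30001159, mm10) was included 49.7% and 55.1% of the time, or 52.4% ± 3.84 (SD, n = 2). The exon of 15 nt (chr2:30014158-30014172) was included 91.5% and 87.9% of the time, or 89.7% ± 2.55, from 169 and 198 spanning reads. Of these, 69 and 99 lay over an intron of 1735 nt that is in neither annotation, and with the annotated spanning intron alone (89 and 85 reads) inclusion was 95.3% and 94.4%. Both have lengths that keep the reading frame and are shown with their flanks, the exon in capitals. An intron of 653 nt that the mm9 annotation lacks had 1158 and 1382 reads, and M21 lists an intron of that length in 6 Sptan1 transcripts.
Sptan1 60-nt exon: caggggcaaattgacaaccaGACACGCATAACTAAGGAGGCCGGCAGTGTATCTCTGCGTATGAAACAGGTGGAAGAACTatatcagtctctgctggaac
Sptan1 15-nt exon: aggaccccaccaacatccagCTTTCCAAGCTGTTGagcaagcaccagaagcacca

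Over the 7 genes, 13 exons stood at a mean inclusion of 10% to 90% with 20 or more spanning reads. With only the most read spanning intron of each exon counted, 11 of the 13 stayed in that range, and the 15-nt exon of Sptan1 (94.9%) and the giant exon of Ank3 (90.2%) passed its upper end. Of the 13, 10 were annotated in mm9, 3.36% of the members' annotated exons, beside 3.82% over all genes with a mean TPM of 1 or above. That share is near the background. Over all genes, counting annotated exons only, 50.1% of those with such inclusion had a length that was a multiple of 3 nt. Of the 13 exons here 12 did, among them the 3 Ank3 exons that the mm9 annotation lacks. The exception was the 125-nt exon of Ank1, included 80.9% and 70.4% of the time, which M21 places partly in coding sequence in 8 of the 11 transcripts that hold it. None lay in Sptb, Sptbn1 or Sptbn4, each with 34 exons that had reads on both sides. The median annotated intron of Sptb had only 53 reads in both counts together. An Sptb exon skipped in a small share of messages could thus fall short of 20 spanning reads.

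**Figure D4:**
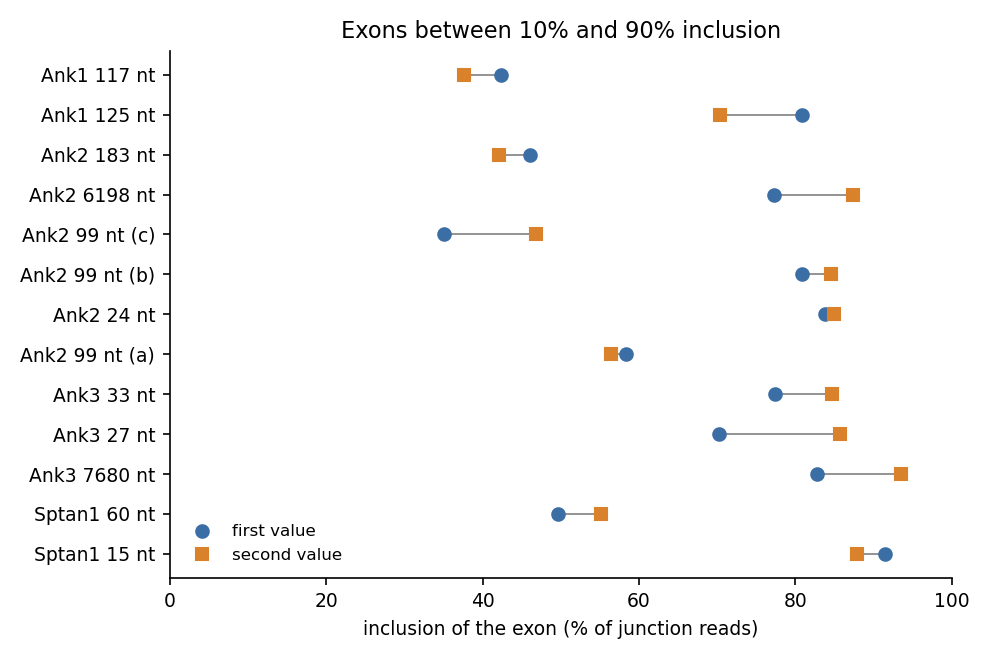
Inclusion in percent of junction reads for the 13 exons, from the first (circle) and second (square) read count; the 3 exons of 99 nt in Ank2 are marked a, b and c from the 5′ end. The giant exons of Ank2 and Ank3 lie at 77.3% or more in both counts when both sides are averaged. From the joint into it alone, the Ank2 giant exon stood at 42.6% and 68.6% (not drawn). The 60-nt exon of Sptan1 lies near the middle of the axis.

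Sptb (ENSMUSG00000021061, chr12:76580488-76710547, minus strand, mm10) encodes the erythroid beta spectrin, which also has muscle and brain forms. It rested on 824 and 3238 expected counts, the fewest in replicate 1 of the 7 genes. Sptb-202 (8084 nt) held 83.7% and 84.6% of the TPM and Sptb-201 (10394 nt) 16.3% and 15.4%, so the split between the 2 forms was alike in the libraries while the level differed 4.4-fold. Junction reads were also few over the end of the longer form. The last intron that both forms share had 16 and 62 reads, while the 4 introns beyond it, which Sptb-202 lacks, had 0 to 4 reads in the first count and 3 to 6 in the second. The most read intron (chr12:77703092-77704375, mm9) had 150.

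Sptbn1 (ENSMUSG00000020315, chr11:30099395-30268175, minus strand, mm10) had 26527 and 48569 expected counts. In replicate 1 the leading model was Sptbn1-207, a retained-intron fragment of 2956 nt, at 45.9%, and in replicate 2 it was the full-length Sptbn1-202 (8238 nt) at 48.3%. Sptbn1-207 went from 34.6 to 39.9 TPM between the libraries and Sptbn1-202 from 25.4 to 63.9 TPM. The 4 models of 5 kb or more went from 33.6 to 80.0 TPM together, so on long models alone Sptbn1 was also past 2-fold, at a log2 ratio of 1.23 of TPM + 1 against 0.80 for the gene. The most read intron (chr11:30000715-30001612, mm9) had 3523 reads. Sptbn1-207 also contains it. An unannotated intron of 347 nt had 26 and 31 reads.

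The 5′ end of Sptbn1 has several annotated starts. The intron after the first exon of Sptbn1-201, the most upstream, had 56 and 105 reads, and the next intron downstream had 252 and 537. That second intron follows the first exon of Sptbn1-202, but M21 gives this exon the same ends (chr11:30219579-30219772, mm10) as exon 2 of Sptbn1-201. The intron after the first exon of Sptbn1-203 had 1 and 15 reads. The 150 bases before the RefSeq starts of Sptbn1-202 and Sptbn1-203 are shown to compare them, with CG dinucleotides in capitals (mm10, minus strand, starts at chr11:30219772 and chr11:30198257).
Upstream of Sptbn1-202: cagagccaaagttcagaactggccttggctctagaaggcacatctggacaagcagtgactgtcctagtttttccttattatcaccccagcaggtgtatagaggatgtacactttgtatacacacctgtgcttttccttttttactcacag
Upstream of Sptbn1-203: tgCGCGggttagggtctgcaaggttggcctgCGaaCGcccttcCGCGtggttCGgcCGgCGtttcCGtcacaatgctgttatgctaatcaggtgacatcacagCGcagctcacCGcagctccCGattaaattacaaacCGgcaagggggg

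The stretch before Sptbn1-202 ends in CAG directly at the start, as do 2.38% of the 32851 RefSeq starts. Its 300-base window, 250 bases before to 50 after the start, held 2 CG dinucleotides, and 85.9% of all windows held as many or more. The window of Sptbn1-203 held 21, a number that 24.8% of all windows reached. The single Sptan1 window (start at chr2:29965560) held 37, reached by 5.58%, and the Sptb window held 21. The median over all windows was 7.

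Sptbn4 (ENSMUSG00000011751, chr7:27356383-27447686, minus strand, mm10) had 6626 and 8406 expected counts. The leading model was Sptbn4-203 (4724 nt, the shorter form with an internal start) in replicate 1, at 48.4%, and the full-length Sptbn4-201 (8747 nt) in replicate 2, at 45.9%. Sptbn4-203 stood at 8.44 and 9.15 TPM and Sptbn4-201 at 6.74 and 10.7 TPM. The internal start had few junction reads. The intron from the first exon of Sptbn4-203 had 7 and 6 reads, and the intron that ends at the same acceptor and comes from the exon upstream had 94 and 151. At the 5′ end the first introns of Sptbn4-201 (18 and 20 reads) and of Sptbn4-206 and Sptbn4-207 (18 and 14 reads) had similar numbers. A short model, Sptbn4-206 (493 nt), held 11.5% and 10.2% of TPM. The most read intron (chr7:28142470-28144761, mm9) had 527, and an unannotated intron of 109 nt had 2 and 13.

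Over the 7 genes, 4 had the same leading transcript in both libraries, beside 90.7% of 10383 genes with a mean TPM of 1 or above with at least 2 transcripts. The 3 others were Sptan1, Sptbn1 and Sptbn4, in each of which replicate 1 was led by a model under 5 kb and replicate 2 by one over 5 kb. By expected counts 5 genes kept their leader, these 3 among them, and Ank2 and Ank3 did not. Restricted to models of 5 kb or more, all 7 had the same leader. The median share of the leading transcript was 41.0%, from 23.5% ± 2.03 in Ank3 to 84.1% ± 0.64 in Sptb (SD, n = 2).

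**Figure D5:**
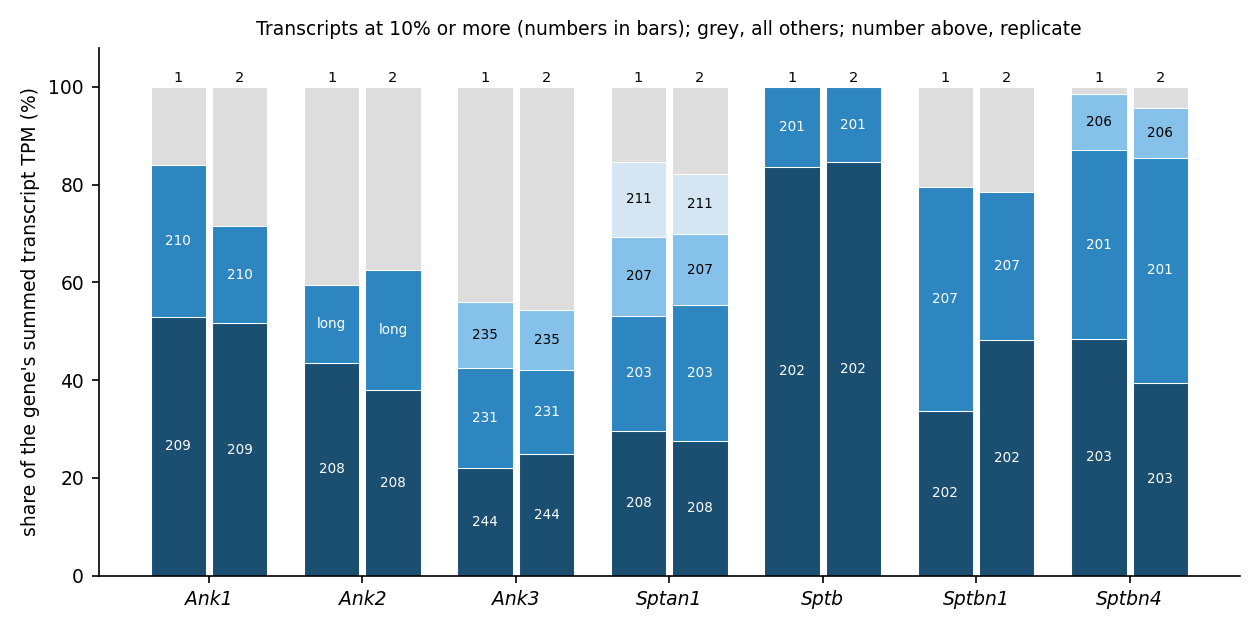
Share of each gene's summed transcript TPM in replicate 1 (left bar) and replicate 2 (right bar), with the transcripts at 10% or more named by their number (in Ank2, long is the 13865-nt model) and all others in grey. Sptb is nearly the same in both libraries, while in Sptbn1 207 holds 45.9% and 30.2% and 202 holds 33.7% and 48.3%.

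Alpha and beta spectrins join in equal numbers, so the summed beta level was set beside Sptan1. Sptan1 stood at 431 and 415 TPM and the 3 beta spectrins together at 94.2 and 162 TPM. Alpha over beta on the log2 scale came to 2.19 and 1.36 in turn, a mean of 1.78 ± 0.59 (SD, n = 2). On models of 5 kb or more, alpha was at 148 and 168 TPM and beta at 41.8 and 97.1 TPM. On that basis the log2 ratio was 1.83 and 0.79, a mean of 1.31 ± 0.73, so Sptan1 exceeded the summed beta spectrins in both libraries and by less in replicate 2 on either basis.

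Partners of the 7 genes were read from fixed lists. Of 10 red cell membrane skeleton genes, 6 were at 1 TPM or more in both libraries and none was 2-fold apart. The highest, Add2 (beta adducin, 82.6 and 86.3 TPM) and Epb41 (protein 4.1R, 70.8 and 84.1 TPM), also act outside red cells. Dmtn (dematin) stood at 26.9 and 30.3 TPM and Mpp1 at 11.6 and 11.7 TPM, and the list's median log2 ratio was 0.17.

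Of the 14 adducins, 4.1 proteins and actin ring partners, 13 were at 1 TPM or more in both libraries, and 2 were 2-fold higher in replicate 2. These were Myh9, a non-muscle myosin (10.02 and 22.7 TPM, log2 ratio 1.11), and Epb41l3 (11.2 and 24.5 TPM, 1.06). Actb and Actg1, the cytoplasmic actins, were highest at 3206 and 3904 and at 1423 and 2367 TPM. Add1 (alpha adducin) stood at 210 and 206 TPM and Myh10, another non-muscle myosin, at 116 and 144 TPM. The list median was a log2 ratio of 0.29.

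The 4 adhesion molecules that bind ankyrins were all at 1 TPM or more and all higher in replicate 2 (median log2 ratio 0.48), with none at 2-fold. Among protein-coding genes with a mean TPM of 1 or above, the share higher in replicate 2 went up with transcript length. It was 29.5% for a longest transcript under 2 kb and 85.2% from 8 kb. The 4 genes were not set beside genes of like length. L1cam stood at 116 and 189 TPM, Chl1 at 48.6 and 72.3, Nfasc (neurofascin) at 37.9 and 50.2 and Nrcam at 30.6 and 39.3 TPM. Among ankyrin-binding channels and transporters, the sodium pump subunit Atp1b1 stood at 64.7 and 96.3 TPM and the sodium channel Scn3a at 40.8 and 42.5 TPM, neither of them 2-fold apart. Among calpains, proteases that cleave spectrin, the small subunit Capns1 stood at 248 and 235 TPM and the large subunits Capn2 and Capn1 at 32.8 and 43.0 TPM and at 4.03 and 5.56 TPM, also with no 2-fold difference.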

How the data were processed

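Per the labels, 2 stranded libraries of E14.5 whole brain were sequenced. The authors deposited, per library, expected counts, TPM and FPKM per gene and transcript (mm10, GENCODE M4, per the text notes deposited beside the files) and each transcript's percent share; of the aligner and the estimator, names are not given in the sources used. They also deposited mm9 tables (Ensembl release 65) of RPKM values per gene, exon and transcript, and junction read counts with a reproducibility fraction. Annotated introns were taken from the mm9 exon table.

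Symbols came from GENCODE M21 by unversioned Ensembl identifier (42462 of 43346 matched), and sequences from M21 transcripts and RefSeq (GRCm38.p6); promoter windows matched 5 of the 7 genes (12 windows). No position was converted between builds: mm9 and M21 exons were matched by exact exon and intron lengths. Differences between libraries use log2(TPM + 1), ratios between genes log2 TPM with no pseudocount, and a 2-fold difference was called with no test, since 1 group of 2 libraries allows none. Expected counts were rounded before scaling with edgeR 4.0.16 and DESeq2 1.42.0 (R 4.3.3), genes under 10 counts in sum being left out. Fold calls and inclusion were tested on simulated data. Members and lists were chosen with earlier results of these data known, and the inclusion rule after the junctions were seen. Named were all 7 genes, leading transcripts and those at 10% or more, each gene's most read intron, unannotated introns at 5% or more of the gene's median, and at most 4 genes per list by level plus any 2-fold apart. Other files (contigs, de novo models) were not used here. Some genes of the lists, and list summaries that hold them, are not reported here.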

Additional observations from a re-analysis of the deposited data

How the results depend on the processing

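The median log2 ratio of replicate 2 to replicate 1 over the 7 genes, 0.80, was 0.90 with a pseudocount of 0.1, 0.74 from FPKM, 0.87 from TPM rescaled without mitochondrial and spike-in RNA, 0.96 after TMM or DESeq2 scaling and 0.89 from transcripts of 5 kb or more. For Sptan1 the ratio of -0.05 turned to 0.015 in rescaled TPM, 0.061 after TMM, 0.061 with DESeq2 size factors and 0.18 from transcripts of 5 kb or more. The median leading share of 41.0% was 58.6% by expected counts, 74.6% over protein-coding transcripts and 45.2% over transcripts of 5% or more, and ran from 39.5% to 43.6% in single libraries. The number of genes with the same leading transcript was 7 in place of 4 from transcripts of 5 kb or more. For the long exon of Ank2, the ratio to other exons of -0.01 became 0.42 against their mean and 0.089 against the nearest. That ratio says nothing of exon use on any of these settings, because the exon values equal sums of transcript values. The cause of the other changes was not tested. The count of genes 2-fold apart went from 2 to 3 with TMM, DESeq2 or long transcripts, and that of pairs apart from 18 to between 16 and 19. The alternatives with transcripts of 5 kb or more, with 1 side of an exon and with 1 spanning intron were chosen after seeing the data. No paired analysis was possible because the series has only 1 group. Sptb in replicate 1 rests on 824 expected counts and is the least precise level.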
